A study of Mus musculus with 12 samples.

Results

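Genes with a single polyadenylation site (PAS) in the 3′-most exon were described from the list of PASs found by 3′READS+, a method that sequences the 3′ ends of polyadenylated transcripts. A gene was taken when exactly 1 distinct PAS labelled exon3 was listed under its symbol. This held for 7609 of the 15075 genes with an exon3 PAS, or 50.5% (95% Wilson interval 49.7 to 51.3), and for 45.8% of all 16627 genes in the list. Their PASs made up 24.3% of the 31279 exon3 entries, since the other 7466 genes shared the remaining 23670 entries. The labels are not defined in the sources used here. From their names and positions, exon3 was read as the 3′-most exon and exon3ext as the stretch beyond its annotated end. The labels intron_Comp and intron_Skip were read as intronic sites, exonI and exon5 as internal and first exons, and exon53 as genes with a single exon. An exon53 PAS was also listed for 3 genes with a single exon3 PAS, which this reading of exon53 does not cover. UA was read as upstream antisense, and the antisense part rests on the name alone. All 1249 UA entries of genes with a single exon3 PAS were listed upstream of that PAS, with the same strand value.

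The list came from 12 libraries of C57BL/6 mouse hippocampus, labelled as 3 month old. Acute slices, from which the dentate gyrus had been trimmed, were treated with forskolin and then with forskolin in medium high in potassium and calcium to induce chemical long-term potentiation (LTP), or with medium containing DMSO as control. The tissue was frozen after 1 hr or 3 hr. Each of the 4 groups has 3 replicates, and each animal gave both LTP and control slices. The study asked whether LTP changes the choice of PAS. The 12 columns of read numbers carry names that match no sample label and were not used here, so no level, depth or difference between LTP and control slices is given. What follows describes which sites are listed and where they lie, over all libraries together, and a gene that is not expressed in these slices can still be listed with few reads. The study's own site counts were limited to sites above a read number and a relative abundance. Its analysis also left out a control library of 3 hr as an outlier. Neither step was taken here, so a rarely used site counts like any other.

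The 3′ end of nearly every mRNA is made by cleavage of the nascent transcript followed by addition of a poly(A) tail. The cleavage machinery reads a hexamer, AAUAAA in RNA or a close relative, a short distance upstream of the cut, and a U-rich or GU-rich element downstream of it. A gene with several PASs in its last exon can make mRNAs that share a protein but carry 3′ untranslated regions (3′UTRs) of different lengths, and hence different sites for microRNAs and RNA-binding proteins. Neurons are known for long 3′UTRs, some of which direct mRNAs to dendrites. A gene with 1 PAS in its last exon lacks this choice in the list, and an alternative 3′ end can then come only from an intron, an upstream exon or the stretch beyond the annotated end.

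The 3′ ends of 12 genes with a single exon3 PAS are shown to let the hexamer be seen in genes of different function. They are the last 30 nt, 5′ to 3′, of the annotated transcript that ends farthest downstream, from GENCODE M21 on GRCm38. The list is on mm9, the build in the submitters' processing notes, so the sequence is that of the annotated end, which may differ from the listed PAS. Capitals mark the hexamer: AATAAA where present, otherwise the next most frequent hexamer ATTAAA, and otherwise a variant with 1 base changed from AATAAA.
Rpl10a, chr17:28331004-28331033, plus strand: gctccAATAAAcctcactgctgccactcag
Rpl11, chr4:136049731-136049760, minus strand: ttaagtgggttttgagaggtattgggttgg
Atp5c1, chr2:10056016-10056045, minus strand: acttacaatgagaaaatcagtctcattatt
Atp5d, chr10:80145789-80145818, plus strand: gtctccATTAAAcaccaggaaccaactgag
Arc, chr15:74669083-74669112, minus strand: atgattttgttAATAAAactatgaaactta
Atf3, chr1:191170296-191170325, minus strand: atAATAAAtatcggaacaaaacctggtaaa
Clp1, chr2:84722104-84722133, minus strand: taagtatacAATAAAtttaaccttttcttc
Cpsf1, chr15:76595806-76595835, minus strand: taaaacacaAAGAAAacgatttctttcaga
Cplx1, chr5:108518554-108518583, minus strand: acagccAATAAAcagtgatttcacaccgtg
Cplx2, chr13:54383888-54383917, plus strand: tgatgacaAAGAAAaagaccttgtacagca
Cck, chr9:121489824-121489853, minus strand: gctATTAAAgagatttccttctgcccctca
Chga, chr12:102564999-102565028, plus strand: aaggaagAATAAAgtgctttgggctctttg

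Of these 12 ends, AATAAA was found in those of *Rpl10a* (a ribosomal protein), *Arc* and *Atf3* (genes induced by neuronal activity), *Clp1* (a cleavage factor subunit), *Cplx1* (complexin, a regulator of vesicle fusion) and *Chga* (chromogranin A). ATTAAA stood in *Atp5d* (an ATP synthase subunit) and *Cck* (the neuropeptide cholecystokinin). The ends of *Cpsf1* (a subunit of the factor that binds the hexamer) and *Cplx2* held the variant AAGAAA. The annotated ends of *Rpl11* and *Atp5c1* held none of the hexamers searched, although both genes are listed with an exon3 PAS.

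Over all genes, a single exon3 PAS was the most frequent class. Genes with 2 exon3 PASs numbered 3480, those with 3 numbered 1836, those with 4 numbered 966 and those with 5 numbered 549, and 61 genes had 10 or more.

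**Figure D1:**
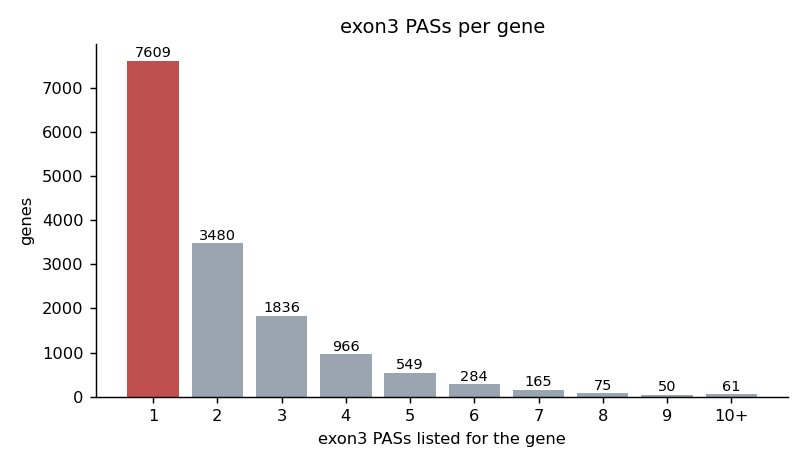
Number of genes (vertical axis) by the number of exon3 PASs listed for the gene (horizontal axis), with the genes with a single exon3 PAS in red. Of the 15075 genes, 7609 have 1 and 61 have 10 or more.

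The single PASs lay on both strands about equally, with 3782 on the plus and 3827 on the minus strand. Among chromosomes, the share of genes with a single exon3 PAS was highest on chromosome 7, at 60.2% of 1184 genes, and on chromosome 17, with 444 of 753. It was lowest on chromosome 18, at 38.9% of 393 genes, and on chromosome 13, at 43.9% of 522.

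Genes with a single exon3 PAS had shorter annotated 3′UTRs. Of the 7609, 7530 (99.0%) were matched to GENCODE M21 by symbol or synonym and 7351 of these were protein coding. The median of the longest annotated 3′UTR was 655 nt in them (95% interval 627 to 682, n = 7342), against 1292 nt in genes with 2 exon3 PASs (1246 to 1350, n = 3383), 1820 nt with 3 (1746 to 1908, n = 1791), 1942 nt with 4 (1840 to 2073, n = 938) and 2550 nt with 5 or more (2431 to 2684, n = 1153). With the shortest annotated 3′UTR of each gene in place of the longest, the medians were 293 nt and, in genes with 2 or more exon3 PASs, 579 nt. The intervals are of binomial order statistics and cover counting error over genes alone, which are not replicates, and no test was made. The intervals did not overlap between neighbouring classes except between 3 and 4 exon3 PASs. Coding length differed less, at 1305 nt against 1464 nt in genes with 2 or more exon3 PASs, and the median number of introns was 8 in both. Annotated gene length was 18593 nt against 30763 nt.

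Read the other way, the share of genes with a single exon3 PAS fell with each step of annotated 3′UTR length. It was 84.5% in genes with a 3′UTR under 250 nt (82.9 to 86.1, 1639 of 1939 genes), 57.0% from 500 nt to under 1000 nt (55.1 to 58.8, 1608 of 2823) and 22.7% at 4000 nt or more (20.4 to 25.2, 258 of 1137). As read here, the exon3 label stops at the end annotated for the list, on mm9, so a short 3′UTR there leaves less room for exon3 sites. Sites beyond that end are labelled exon3ext. The lengths used here are those of GENCODE M21, and its ends may differ from those of the list. The part of this limit of the label in the fall and in the medians above was not tested.

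**Figure D2:**
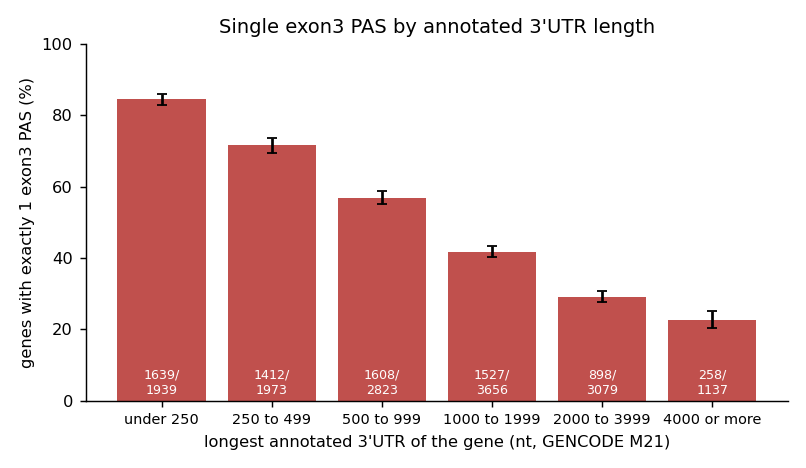
Percentage of genes with exactly 1 exon3 PAS (vertical axis) by the longest annotated 3′UTR in nt (horizontal axis), with 95% Wilson intervals as error bars and the genes counted inside each bar. The bars fall from 84.5% under 250 nt to 22.7% at 4000 nt or more.

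A long annotated 3′UTR and a single listed PAS nonetheless met in 258 genes. The 5 longest were those of *D1Ertd622e* (39397 nt), *Hnrnpr* (19419 nt), an RNA-binding protein, *Ntrk3* (16600 nt), the receptor for neurotrophin-3, *Fam135b* (14291 nt) and *Styx* (11922 nt), a pseudophosphatase. At the other end stood *Pih1d2* (3 nt), *Znrd1as* (9 nt), *1700021C14Rik* (10 nt), *Zp3* (13 nt), a zona pellucida glycoprotein of the egg coat, and *Zar1l* (14 nt), and 8 genes had an annotated 3′UTR of 0 nt. The value is the longest over all transcripts of a gene, and the listed PAS need not be the end of that transcript.

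The hexamer was more often the canonical one in these genes. In the last 40 nt of the annotated 3′-most end, searched on the transcript strand, AATAAA was found in 67.0% of 7348 genes with a single exon3 PAS (65.9 to 68.0) and in 59.7% of 7268 genes with 2 or more (58.6 to 60.8). Over all genes with an exon3 PAS it was found in 63.4%. ATTAAA, counted where AATAAA was absent, was found in 13.4% against 15.8%, with 14.6% over all genes. One of 16 other hexamers that differ from AATAAA by 1 base, counted where both were absent, was found in 11.3% against 14.1%, and none of these in 8.33% (7.72 to 8.98) against 10.5% (9.79 to 11.2). The most frequent variants in genes with a single exon3 PAS were AGTAAA in 160 genes, TATAAA in 126 and CATAAA in 83. AATAAA began a median of 24 nt before the end, against 23 nt in genes with 2 or more exon3 PASs.

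The share with AATAAA or ATTAAA did not follow 3′UTR length within the genes with a single exon3 PAS. It lay between 79.3% and 83.3% in all 6 length classes, with overlapping intervals for the shortest (79.2 to 83.0) and the longest class (78.3 to 87.4). The last 60 nt held a median GC content of 35% in these genes and of 30% in genes with 2 or more exon3 PASs.

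Most genes with a single exon3 PAS had no other site at all. No PAS of any other label was listed for 4844 of them, or 63.7% (62.6 to 64.7), against 46.1% of genes with 2 or more exon3 PASs. An intronic PAS was listed for 1907 (25.1%, 24.1 to 26.0), a UA site for 771 (10.1%, 9.47 to 10.8) and an exon3ext PAS for 697 (9.16%, 8.53 to 9.83). Each share was higher in genes with 2 or more exon3 PASs, at 39.6% (38.5 to 40.7), 16.1% (15.3 to 17.0) and 1120 of 7466 (14.2% to 15.8%), with intervals that did not overlap. Within classes of annotated 3′UTR length this did not hold throughout: at 4000 nt or more an exon3ext PAS was listed for 36 of 258 genes with a single exon3 PAS (10.3% to 18.7%) and 117 of 879 with 2 or more (11.2% to 15.7%), and the intervals for UA sites overlapped there and under 250 nt. The share with an intronic PAS was 32.8% in genes with 2 exon3 PASs, 45.9% with 4 and 53.6% with 5 or more. Sites in internal exons (137 genes) and first exons (29 genes) were few. Among the genes with other sites, 1371 had intronic sites without UA or exon3ext sites, and 55 had all 3 kinds. How deeply a gene was sequenced moves the number of sites that can be listed for it, and its part in these shares was not tested.

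Intronic PASs produce transcripts with another last exon and often a truncated protein. The 1907 genes held 4711 intronic entries, 4124 labelled intron_Comp and 587 labelled intron_Skip. Of the genes, 964 had 1 such site, 381 had 2, 186 had 3 and 376 had 4 or more. The highest numbers were those of *Cntnap5b* (27 sites), a cell adhesion protein, *Dok6* (23), a docking protein of receptor tyrosine kinases, *Dpyd* (23), which degrades pyrimidines, *Nav3* (22) and *Kif6* (17), a kinesin. The site lay upstream of the exon3 PAS in 4676 entries and on its other side in 35. The median distance upstream was 18495 nt, with quartiles of 6534 and 56977 nt, and 2.84% of sites were within 1000 nt. Among the longest distances were those of *Csmd1* (1615916 nt), *Park2* (1163978 nt), *Gpc5* (1153226 nt) and *Agbl4* (1019294 nt).

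**Figure D3:**
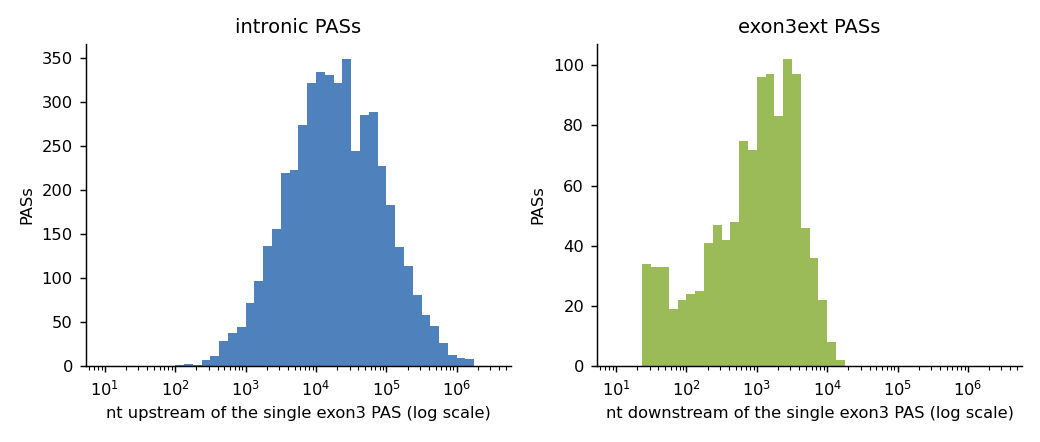
Number of PASs (vertical axes) by distance in nt from the single exon3 PAS on a log scale (horizontal axes), for intronic PASs upstream of it (left) and exon3ext PASs downstream of it (right). Intronic sites have a median of 18495 nt and exon3ext sites of 1123.5 nt, with a further group of exon3ext sites below 100 nt.

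Longer genes had intronic PASs more often, and within each class of gene length the share was lower in genes with a single exon3 PAS. Under 10000 nt it was 10.3% (232 of 2249 genes) against 17.3% (206 of 1189) in genes with 2 or more. At 100000 nt or more it was 48.1% (402 of 835) against 58.9% (757 of 1285). These intervals did not overlap in any of the 5 classes. For exon3ext sites the intervals overlapped at 100000 nt or more, at 8.86% (7.12 to 11.0) against 12.3% (10.6 to 14.2).

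**Figure D4:**
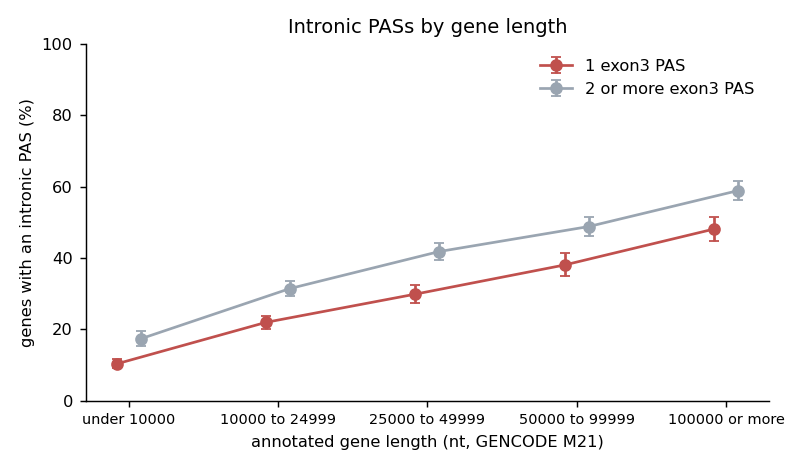
Percentage of genes with an intronic PAS (vertical axis) by annotated gene length in nt (horizontal axis), for genes with 1 (red) and with 2 or more (grey) exon3 PASs, with 95% Wilson intervals. Both lines rise with length, from 10.3% to 48.1% and from 17.3% to 58.9%, and the red line lies below the grey one in all 5 classes.

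As read here, exon3ext sites lie beyond the last exon as annotated for the list, and would lengthen that 3′UTR. The end in GENCODE M21 may differ, so such a site can lie within a 3′UTR length given here. The 697 genes held 1104 exon3ext entries, all downstream of the exon3 PAS, at 25 to 15335 nt with a median of 1123.5 nt. Of these, 31.1% lay within 500 nt and 92.4% within 5000 nt. In genes with 2 or more exon3 PASs the median from the last exon3 PAS was 1182.5 nt. The most distant were those of *Cux1* (15335 nt), a homeobox transcription factor, *Arv1* (15169 nt), *Hebp1* (12971 nt), a heme-binding protein, *4930539J05Rik* (10983 nt) and *Dyrk1b* (10610 nt), a protein kinase. With such sites counted as exon3 sites, 7036 genes had a single PAS.

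Some single PASs were listed under more than 1 gene. This held for 97 of the 7609 genes, or 1.27%, at 55 distinct PASs, and 24 of these PASs were the single exon3 PAS of 2 or more genes. The following were chosen after their values were seen. A PAS was shared by 14 protocadherin alpha (*Pcdha*) genes, which join different first exons to common last ones. Another on chromosome 1 (plus strand, position 90115573, mm9) was listed under 8 *Ugt1a* genes, which encode glucuronosyltransferases and share their last exons. The PAS of *Snrpn* was that of *Snurf*, which is read from the same transcript. The PASs of *Rpl26*, *Rpl30*, *Rps23* and *Rps27* were each listed a second time under a gene with a predicted-gene (Gm) symbol, and that of *Hnrnpa1* was listed under 3 genes.

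Genes on opposite strands often ended close to each other. An exon3 PAS of another gene lay on the other strand within 1000 nt of the single PAS in 942 genes, or 12.4% (11.7 to 13.1), against 10.1% (9.47 to 10.8) of genes with 2 or more, and the median distance among the 942 was 210 nt. This nearest PAS lay downstream of the single PAS in 726 genes and upstream or at the same position in 216. Transcripts that end at exon3ext sites can still overlap in the former, as in *Rpl7a*, named after its values were seen, with the *Surf1* PAS 65 nt and its own exon3ext PASs up to 182 nt downstream. In 265 pairs both genes had a single exon3 PAS. In *Ilvbl* and *Syde1*, named after their values were seen, the 2 PASs were at adjacent positions on chromosome 10 (78047247 and 78047248, mm9).

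Gene lists of different function, 34 in all, are described by their counts beside the 50.5% of all genes, with a 95% interval for each list taken alone and no test between lists. Several lists were made by symbol prefix and hold relatives of other function. Genes of a list without an exon3 PAS were left out of its count. The 3′UTR length given for a named gene is that of its longest annotated 3′UTR, and the listed PAS need not be its end. Counts of other sites in a list stand beside the shares over all genes with a single exon3 PAS, which were 63.7% with no PAS of another label, 25.1% with an intronic PAS and 9.16% with an exon3ext PAS. The lists were not matched for gene length. In genes with a single exon3 PAS, the share with an intronic PAS rose with gene length from 10.3% to 48.1%. The part of gene length in the list counts was not tested. Among ligand-gated and G protein-coupled receptors for glutamate, the main excitatory transmitter, 7 of 15 ionotropic receptor genes had a single exon3 PAS. They include *Gria4*, an AMPA receptor subunit with 1 intronic PAS 59684 nt upstream, *Grik4* and *Grik5*, kainate receptor subunits with 0 and 3 intronic PASs, and *Grin3b*, an NMDA receptor subunit with an exon3ext PAS 3284 nt downstream. The AMPA receptor genes *Gria1*, *Gria2* and *Gria3* were not in the set, with 3, 3 and 2 exon3 PASs. The NMDA receptor genes *Grin2a*, *Grin2d* and *Grin3a* had no exon3 PAS and are not among the 15. Of the metabotropic receptors, 3 of 7 had a single exon3 PAS: *Grm2* without an intronic site, *Grm4* with 2 and *Grm7* with 1.

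Receptors for GABA, the main inhibitory transmitter, stood lowest among the lists with 6 or more genes, with 3 of 12 (interval 8.89% to 53.2%). *Gabra3* had a 3′UTR of 1968 nt and no intronic or exon3ext site, *Gabrd*, the subunit of extrasynaptic receptors, had 1 UA site, and *Gabrg3* had 9 intronic PASs and a 3′UTR of 7948 nt. The interval takes in the 50.5% of all genes.

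At the postsynaptic density, 4 of 12 scaffold genes had a single exon3 PAS. *Dlg4*, which encodes PSD-95, had a 3′UTR of 5463 nt and no intronic or exon3ext site. *Dlgap1* had 3 intronic sites at up to 207366 nt, *Homer3* had 3 at up to 6656 nt, and *Dlgap3* had none. Of the adhesion molecules that join both sides of the synapse, *Nlgn3* (3′UTR of 5701 nt) and *Nrxn3* (2525 nt) had a single exon3 PAS and no intronic or exon3ext site, and the other 4 neurexins and neuroligins had more.

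On the presynaptic side, 8 of 20 vesicle release genes were in the set (interval 21.9% to 61.3%). *Cplx1*, *Nsf*, the ATPase that takes SNARE complexes apart, and *Stx1a*, a SNARE of the plasma membrane, had no intronic or exon3ext site. *Cplx2* had an exon3ext PAS 917 nt downstream, and *Unc13b*, a vesicle priming factor, an intronic PAS 96316 nt upstream. Of the voltage-gated calcium channel alpha subunit genes, 4 of 8 were in the set. *Cacna1a*, which encodes the P/Q-type channel, had 9 intronic PASs, the N-type *Cacna1b* and the T-type *Cacna1h* had none, and *Cacna1f* had 1. Potassium channels were at 36 of 74 genes (48.6%, 37.6 to 59.8), and 12 of the 36 had an intronic PAS. *Kcna2* had a longest annotated 3′UTR of 9401 nt in GENCODE M21 and 3 exon3ext PASs at up to 9333 nt from its exon3 PAS. These lengths come from different annotations and do not add up, since the sites may lie within that 3′UTR. *Kcnh3* had 8 intronic PASs.

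Genes of the signalling pathways that serve LTP were in the set at 4 of 13 for calmodulin and its kinases and 9 of 23 for protein kinases A and C and the adenylyl cyclases. All 13 of these single-PAS genes had no PAS of any other label, beside 63.7% of the whole set. They include *Calm2*, *Camk1*, *Camk1g* and *Camkk1* on the calcium side, and *Adcy3*, *Prkaca*, *Prkar1b* and *Prkcb* on that of cAMP and lipid signals. *Camk2a* and *Camk2b*, the alpha and beta subunits of CaMKII, were outside the set with 2 and 8 exon3 PASs.

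Of 47 listed immediate early and activity-induced genes, 41 had an exon3 PAS and 18 of these a single one (43.9%). *Jun*, *Junb*, *Jund*, *Ier2* and *Ier5* had exon53 sites instead, and *Egr3* had an exon3ext site. Of the 18, 17 had no PAS of another label, against 63.7% of all genes with a single exon3 PAS. *Arc*, a regulator of AMPA receptor endocytosis, ended at position 74499513 of chromosome 15 (minus strand, mm9), and its annotated 3′UTR was 1668 nt long. *Atf3*, a stress-responsive transcription factor, had a 3′UTR of 1186 nt. *Bdnf*, a neurotrophin known for transcripts with a short and a long 3′UTR, was listed with a single exon3 PAS at position 109564821 of chromosome 2 (plus strand, mm9), and its longest annotated 3′UTR was 2855 nt. *Dusp1* and *Dusp6*, phosphatases of MAP kinases, had 3′UTRs of 690 and 1190 nt, and *Dusp6* alone of the 18 had an exon3ext PAS, 1263 nt downstream. The list also holds *Fos*, *Npas4*, *Egr2* and *Egr4* in the set, while *Fosb* and *Egr1* had 3 exon3 PASs each, *Homer1* had 2 and *Nr4a3* had 10. The 18 genes had a median 3′UTR of 828 nt and the others of the list with an exon3 PAS 1629 nt.

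The machinery that makes 3′ ends was itself at 12 of 23 genes (52.2%, 33.0 to 70.8), and 6 of the 12 had an intronic PAS, beside 25.1% of the whole set. *Cstf3*, a cleavage stimulation factor subunit with a known intronic PAS, had 1 listed 55996 nt upstream. *Pcf11*, which acts in termination, had 2 at 24472 and 24515 nt, *Nudt21*, a subunit of cleavage factor I, 1 at 7814 nt, and *Pabpc1*, the cytoplasmic poly(A)-binding protein, 1 at 734 nt. *Clp1*, *Cpsf1* and *Cpsf3*, the endonuclease, had none. Of the SR and hnRNP splicing regulators, 9 of 27 were in the set (33.3%, 18.6 to 52.2), among them *Hnrnpr* with 4 exon3ext PASs at up to 2508 nt, *Hnrnpa1* with 2, *Srsf9* with 1 and *Hnrnph2* with 2 intronic PASs.

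Genes of mitochondrial respiration had a single exon3 PAS most often among the lists of more than 10 genes. Of 86 oxidative phosphorylation genes 66 did (76.7%, 66.8 to 84.4), an interval above the 50.5% of all genes, and 54 of the 66 had no other site. Their 3′UTRs had a median of 188.5 nt, against 643 nt in the other genes of the list. *Atp5c1*, *Atp5d* and *Atp5e*, subunits of ATP synthase, had none of the intronic or exon3ext sites. *Atp5f1* had 1 intronic PAS, *Atp5g2* had 2, *Atp5l* had 2 and an exon3ext PAS 28 nt downstream, and *Cox5a*, a subunit of cytochrome c oxidase, had an exon3ext PAS 618 nt downstream.

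Cytosolic ribosomal proteins were at 45 of 79 (57.0%, 46.0 to 67.3), with a median 3′UTR of 81 nt. Among the 45, 11 had an exon3ext PAS, beside 9.16% of the whole set. That of *Rpl26* lay 27 nt from the exon3 PAS, and whether it is a separate cleavage site was not tested. The share of the list with a single exon3 PAS was 43.0% with exon3ext sites counted as exon3 sites. *Rpl13* and *Rpl24* had 1 intronic PAS each, at 428 and 1534 nt. Mitochondrial ribosomal proteins were at 39 of 74 (52.7%), among them *Mrpl11*, *Mrpl13* and *Mrpl15* without such sites and *Mrpl3* with 2 intronic and 2 exon3ext PASs. Proteasome genes were at 28 of 46 (60.9%, 46.5 to 73.6), with *Psma1*, *Psma4* and *Psma6* without and *Psma5* with 3 intronic PASs. Aminoacyl tRNA synthetases were at 20 of 36 and genes with an Eif symbol, mostly translation initiation factors but also the Argonautes of the Eif2c series, kinases of eIF2 and eIF4E-binding proteins, at 27 of 56. Chaperones were at 30 of 69, including *Cct2*, *Cct3* and *Cct5*, subunits of the chaperonin that folds actin and tubulin.

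Zinc finger protein genes of the Zfp series, most of which encode DNA-binding proteins, had a single exon3 PAS in 96 of 332 cases (28.9%, 24.3 to 34.0), an interval below the share of all genes. In the 96, 29 had an intronic PAS and 14 an exon3ext PAS, and the median 3′UTR was 919 nt against 1748 nt in the others. *Zfp13* and *Zfp157* had neither kind of site, *Zfp213* had 3 intronic PASs and *Zfp235* had 4. Ubiquitin peptidases and conjugating enzymes were at 26 of 78 (33.3%, 23.9 to 44.4), also below. *Ube2c*, *Ube2e1* and *Ube2e2* had no intronic or exon3ext site, and *Ube2u* had 3 intronic PASs. Rab GTPases, which direct vesicle traffic, were at 23 of 54, solute carriers at 147 of 295, and kinesins at 20 of 33, and 10 of these 20 had an intronic PAS, beside the same 25.1%. Of the 48 histone genes listed, 8 had an exon3 PAS and 3 of these a single one: *H2afy*, *H3f3a* and *Hist1h2bc*. Among the others, 37 had PASs labelled exon53 or exon53ext, the labels read as those of single-exon genes.

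**Figure D5:**
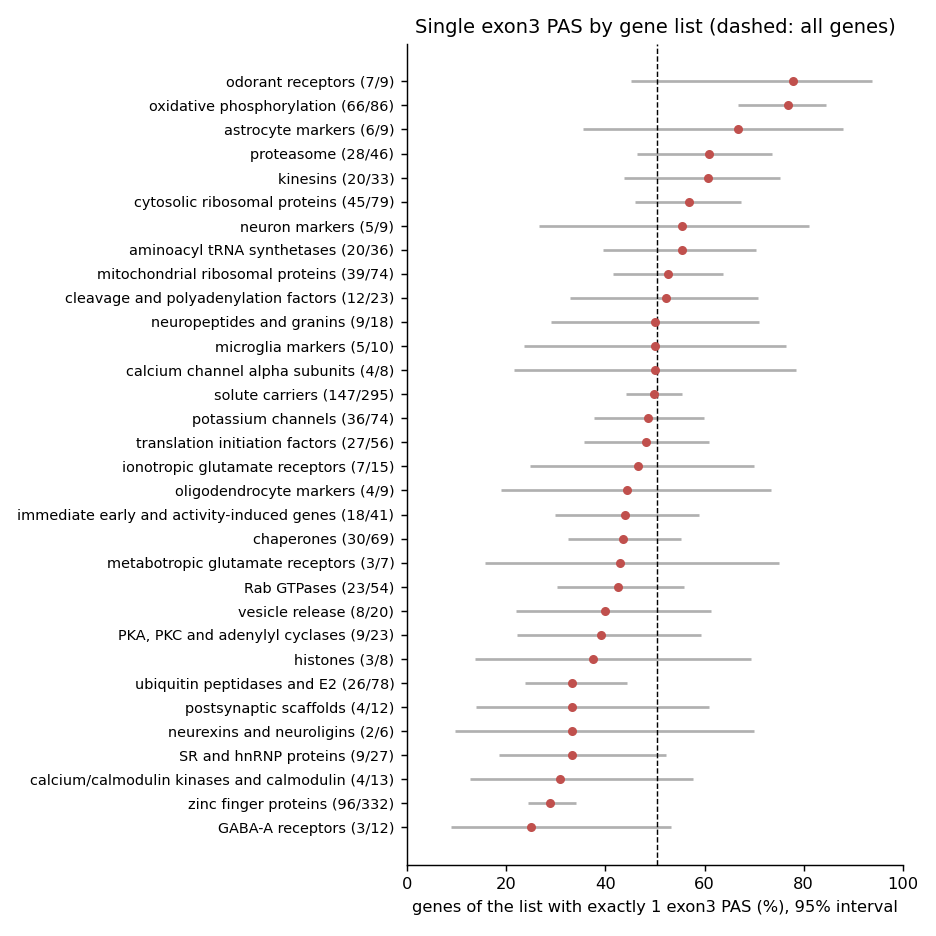
Percentage of genes with exactly 1 exon3 PAS (horizontal axis) in each gene list with 6 or more genes (rows, with the counts), with 95% Wilson intervals, and the 50.5% of all genes as a dashed line. Oxidative phosphorylation lies to the right of the line, and zinc finger proteins and ubiquitin peptidases and E2 to its left, with intervals that do not reach it.

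Neuropeptides and granins were at 9 of 18, and 8 of the 9 had no PAS of another label, among them *Cck*, *Chga* and *Chgb*, with 3′UTRs of 350, 335 and 250 nt, while *Npy* had a 3′UTR of 180 nt. Genes known as markers of the cell types of the hippocampus were listed on both sides, and their presence in the list is no measure of cell number. Of 9 neuron markers 5 had a single exon3 PAS: *Gad1* and *Gad2*, which make GABA, *Slc17a7*, the vesicular glutamate transporter, *Neurod2* and *Tubb3*. *Gad1* had an intronic PAS 34237 nt upstream. Of 9 astrocyte markers 6 did, among them *Slc1a2*, the main glutamate transporter, with a 3′UTR of 9250 nt and no intronic or exon3ext site, and *Gfap*, with an intronic PAS 2821 nt upstream. Oligodendrocyte markers were at 4 of 9 and microglia markers at 5 of 10, among them *C1qa* and *C1qb*, subunits of complement C1q. Endothelial markers were at 3 of 4. The 3 markers of dentate granule cells, *C1ql2*, *Dsp* and *Prox1*, were all listed with a single exon3 PAS, although the dentate gyrus had been trimmed. Odorant receptor genes, which act in the nose, were listed with a single exon3 PAS in 7 of 9 cases.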

How the data were processed

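3′READS+ libraries were made from 12 hippocampal samples (4 groups of 3, 1 hr or 3 hr after treatment). The authors mapped reads with Bowtie2, took those with untemplated Ts as ends of poly(A) tails and clustered sites within 24 nt. The genome build is mm9 by the submitters' processing notes. The deposited table has 56204 entries, each a site with its gene, place in the genome and region label, and 12 columns of read numbers. The latter were not used, since their names match no sample label. No test, replicate error or depth is therefore given. The samples were grouped by their labels, and no group enters a value here.

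Genes were counted by distinct exon3 sites in pandas 2.3.3 (numpy 2.4.6, Python 3.11.15). Wilson intervals (95%, scipy 1.17.1) cover counting error only. 3′UTR, gene length and sequence came from GENCODE M21 (GRCm38), matched by symbol, and no coordinates were converted. Hexamers were searched in the last 40 nt. The counting was tested on simulated data. Figures used matplotlib 3.10.9.

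The genes and lists were chosen with earlier results of these data known. Named genes were all members of a list with 6 or fewer, otherwise the first 4 alphabetically and up to 4 with an intronic or exon3ext PAS, and the 5 extremes of each measure. Sequences were those of the first 2 members of 6 lists. Not all named genes are printed, and 1 is not reported here. Other names (tandem genes, *Fos*, *Npas4*, *Egr2*, *Egr4*, and those marked in the text) were added after their values were seen. Alternatives joined sites, left out labels or shared sites, or changed the annotation used.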

Additional observations from a re-analysis of the deposited data

How the results depend on the processing

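The number of genes with a single exon3 PAS was 7609, and it was 7036 with exon3ext sites counted, 7521 without sites listed under more than 1 gene and 8646 with exon3 sites within 100 nt joined. Exon3ext sites were not joined. The share was 46.0% of the 15293 genes with an exon3 or exon3ext PAS when exon3ext sites were counted, and 57.4% of genes with an exon3 PAS when sites were joined, in place of 50.5%. The share with an intronic PAS was 22.8% with intron_Comp sites alone, against 37.0% in genes with 2 or more exon3 PASs. With UA sites left out, 68.6% of genes with a single exon3 PAS had no other site. The median 3′UTR was 293 nt with the shortest annotated 3′UTR of each gene, against 579 nt in genes with 2 or more exon3 PASs. AATAAA or ATTAAA was found in 70.8% of genes in the last 30 nt and in 86.2% at any annotated end, in place of 80.4%. The UA and hexamer alternatives are given for genes with a single exon3 PAS alone. They do not bear on the contrast with genes with 2 or more. Of the 34 lists, 33 kept a share within the interval of the first count with exon3ext sites counted, the exception being cytosolic ribosomal proteins (43.0% in place of 57.0%), and 34 without shared sites. No paired analysis was possible because no result comes from a test and the read columns were not tied to replicates. Leaving out each replicate in turn was not run for the same reason. The listed sites depend on read depth, which was not used here, so a single listed PAS does not show that a second one is absent.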
